A study of Mus musculus with 36 samples.

Results

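The genes described here encode the proteins of the mitochondrial ribosome, followed in mouse liver before and after a toxic dose of acetaminophen. Every gene whose symbol starts with Mrpl (large subunit) or Mrps (small subunit) and a digit was taken, which gave 47 Mrpl and 29 Mrps genes, 76 in all, out of 18193 genes that had at least 1 probe set naming no other gene. They were covered by 156 probe sets with 1 symbol, and each gene was represented by the one with the highest mean signal over the arrays. All 76 passed the filter on dim probe sets, as did 14115 genes in all. Another 4 probe sets for these symbols were shared with a second symbol and were not used.

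Mitochondria keep a small genome that encodes core subunits of the respiratory chain, and translate it on ribosomes of their own. The RNAs of that ribosome come from the mitochondrial genome, while all of its proteins are encoded in the nucleus, made in the cytosol and imported. Some of these proteins have counterparts in the bacterial ribosome and others are found only in mitochondria. In acetaminophen injury, a reactive metabolite formed in hepatocytes binds mitochondrial proteins, and failing mitochondria are a central part of the damage.

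Liver RNA of 36 mice was measured on 1-colour Affymetrix arrays, 1 mouse per array. The strains were labelled SJL, SMJ, DBA and C57, and the series calls SJL resistant to acetaminophen injury and the other 3 sensitive. All mice were fasted overnight, and acetaminophen was injected once into the abdomen at 300 mg/kg. The 12 groups were SJL, SMJ, DBA and C57 mice before the dose (0 h), and mice of the same strains at 3 h and at 6 h after it, with 3 different mice in each. There were no vehicle mice at either later time, so the clock hour and the length of the fast cannot be told apart from time after the dose. Age and sex are not given in the sources used here. Mice go by strain and number, as in SJL39. Liver markers bore out the tissue: the summed signal of 9 hepatocyte markers lay between 88240 and 146400 at 0 h, against 84.4 to 238 for 5 lymphocyte markers.

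Levels are MAS5 signals, the linear values deposited, scaled to a trimmed mean of 150 on each array. Changes and differences are on the log2 scale after an offset of 2.77 was added, and are given ± the standard error (SE) of the fit. A gene was called when its adjusted p was under 0.05 in limma, with the Benjamini-Hochberg adjustment over the 14115 genes tested. For counts of these genes with the main settings, the background given is the share of all genes tested that was called the same way. It is not given for the other settings. Same-group arrays correlated between 0.916 and 0.964 over genes (36 pairs), and with 3 arrays a group the precision is limited. The samples are whole liver, in which fewer cells of a type and less RNA per cell cannot be told apart.

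The stretches of DNA before the start sites of 5 of these genes are shown because they hold motifs that were more frequent in these promoters than in all promoters, and because these 5 genes recur in the results: Mrpl44 and Mrpl45 were among those that fell most at 6 h, Mrpl52 rose, Mrpl9 differed between strains and Mrps22 rose early in SJL. Each is the 120 bases directly before the annotated start of transcription, from RefSeq on GRCm38.p6, on the gene's own strand. Capitals mark matches to the motifs searched on both strands: CCGGAAG, a core bound by ETS factors such as GABP, and GCGCNTGCG, which matches the core of the site of NRF1, a regulator of nuclear genes for mitochondria.
Mrpl44, chr1:79775898-79776017, plus strand: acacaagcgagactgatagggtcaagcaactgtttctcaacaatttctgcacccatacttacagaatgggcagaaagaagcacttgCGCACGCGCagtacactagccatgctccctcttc
Mrpl45, chr11:97315596-97315715, plus strand: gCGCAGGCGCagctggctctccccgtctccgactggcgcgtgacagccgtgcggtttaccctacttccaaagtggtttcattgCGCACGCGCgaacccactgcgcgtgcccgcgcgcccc
Mrpl9, chr3:94443216-94443335, plus strand: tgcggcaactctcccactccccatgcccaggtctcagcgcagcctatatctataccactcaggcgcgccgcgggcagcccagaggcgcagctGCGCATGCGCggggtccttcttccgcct
Mrpl52, chr14:54426789-54426908, plus strand: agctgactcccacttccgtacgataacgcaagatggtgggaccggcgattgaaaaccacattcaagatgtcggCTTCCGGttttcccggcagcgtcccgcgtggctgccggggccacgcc
Mrps22, chr9:98601680-98601799, minus strand: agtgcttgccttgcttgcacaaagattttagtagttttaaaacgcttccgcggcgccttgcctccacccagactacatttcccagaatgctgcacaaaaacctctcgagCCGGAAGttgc
The stretches of Mrpl44, Mrpl45 and Mrpl9 held the NRF1 core, with overlapping matches on both strands counted as 2 in Mrpl9 and 2 separate matches in Mrpl45. Those of Mrpl52 and Mrps22 held the ETS core.

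RefSeq promoters of 300 bases, 250 before and 50 after the start, were at hand for 67 of the 76 genes. The ETS core occurred in 25 of the 67 (37.3%), against 8.86% of all 32851 promoters and 17.4% of the 11344 genes that were tested and had a promoter. The NRF1 core occurred in 17 (25.4%), against 6.31% and 13.4%. ATGGCGG, a core of YY1 sites, occurred in 12 (17.9%), against 4.05% and 8.18%. TATAAA, the TATA box, occurred in 5 (7.46%), against 13.6% and 10.4%. By the change at 6 h, described later, the ETS core was in 7 of the 20 genes that fell and in 16 of the 44 that were not called, and the NRF1 core in 6 of 20 and 11 of 44. The YY1 core was in 6 of 20 (30.0%) and 6 of 44 (13.6%), and the TATA box in 0 of 20 and 4 of 44. Of the 3 genes that rose and had a promoter, 2 held the ETS core, 1 the TATA box and 0 the NRF1 or YY1 core. Mrpl15 and Mrps35, which fell, were among the genes without a promoter at hand. No difference between these shares was tested. A match describes the letters in a window and is not a measured binding site.

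As the mean of the 4 strains, no gene of the mitochondrial ribosome had a called change at 3 h. In limma 0 of 76 were called, against a background of 7.26% of all genes, and 10 had an unadjusted p under 0.05. Calls within SJL at 3 h are described later. The median change was 0.00, with 38 genes below zero and 38 above, and the changes ran from -0.25 to 0.21. The lowest was Mrps30 (adjusted p = 0.0971 in limma), which despite its name encodes a protein of the large subunit. With each array scaled to its 75th percentile, with the mean of all probe sets, or without SJL2 or SMJ56, 1 gene was called.

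At 6 h, 23 of the 76 genes were lower and 4 were higher in limma as the mean of the 4 strains. The background was 20.3% lower and 12.7% higher, against 30.3% and 5.26% of these genes. Scaling to the 75th percentile gave 15 lower and 7 higher, and quantile normalization 18 lower and 7 higher. No background is given for these scalings, so whether these counts exceed it is not shown. The changes were small: the median was -0.07, against -0.05 over all genes, and the falls ran down to 0.73-fold. In 24 genes (31.6%) the 6 h mean was below 0 h in all 4 strains, against 20.5% of all genes, and in 7 it was below in none. Mouse by mouse, the median difference of the 76 genes from the strain's own 0 h mean was below zero on all 12 arrays at 6 h, from -0.18 to -0.01. The median over all genes was below zero on 9 of the 12, from -0.08 to 0.05. The 76 genes lay below all genes on the 9 arrays of SMJ, DBA and C57 and above them on the 3 of SJL.

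**Figure D1:**
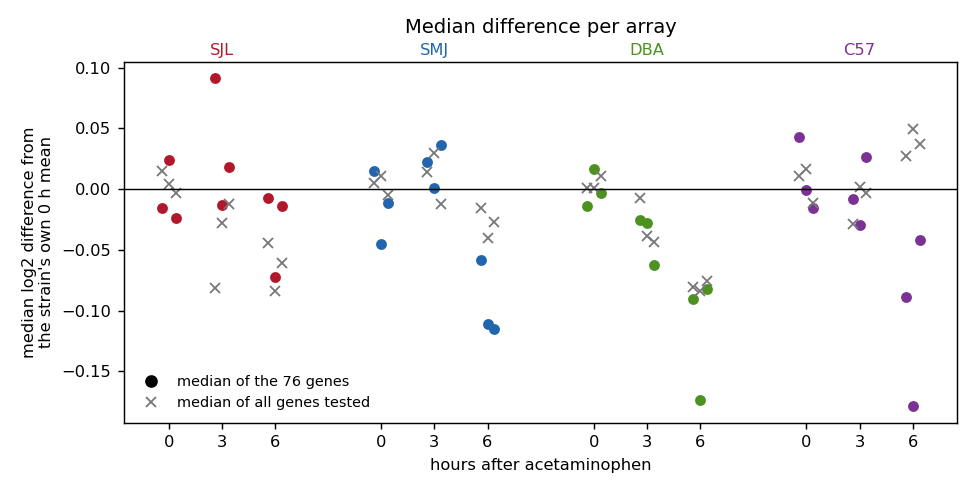
Median log2 difference from the strain's own 0 h mean, over the 76 genes (filled points) and over all 14115 genes tested (crosses), for each of the 36 arrays, by strain and hours after acetaminophen. At 6 h the filled points lie below zero on all 12 arrays, as do the crosses on 9. The filled points lie below the crosses in SMJ, DBA and C57 and above them in SJL, and the crosses are above zero in C57.

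**Figure D2:**
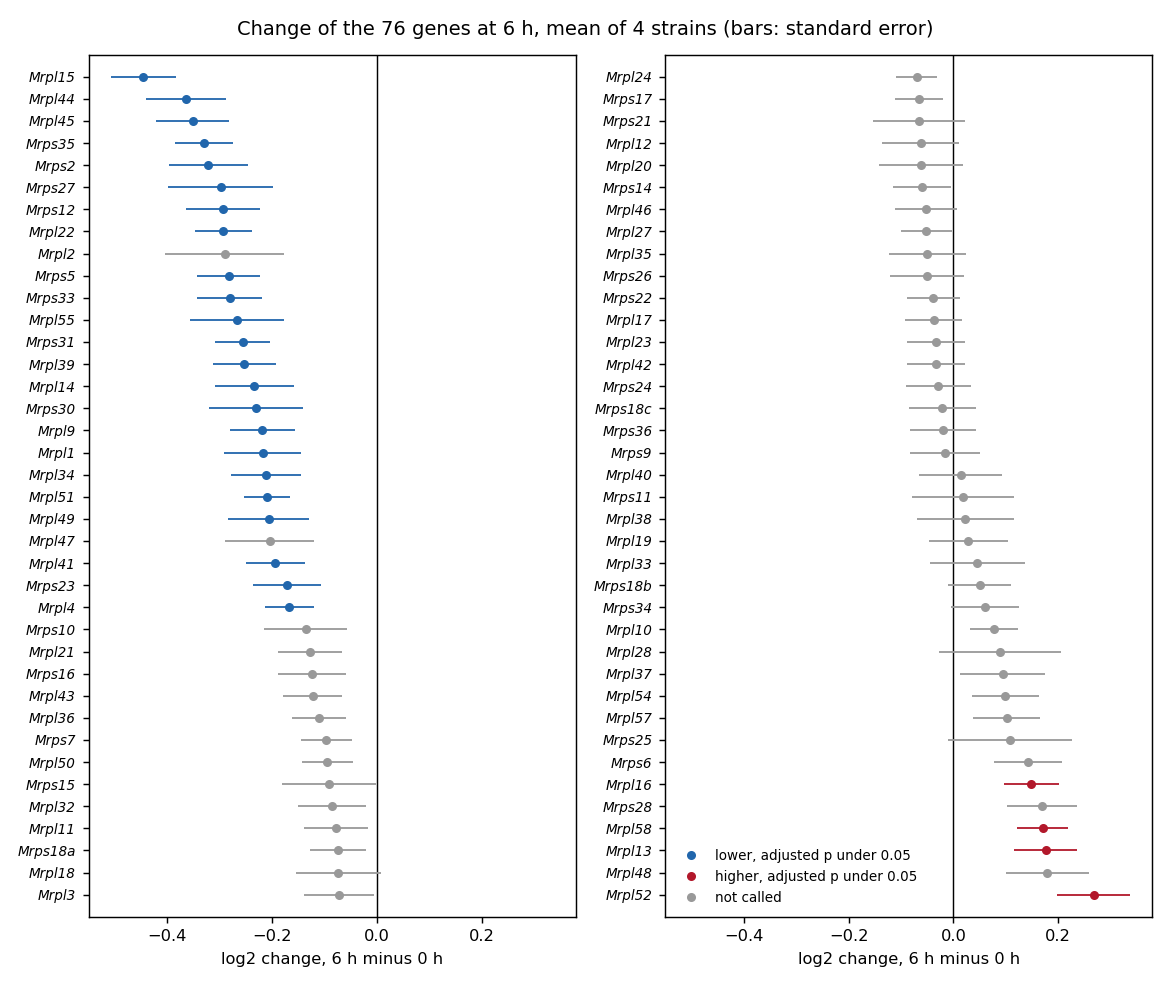
Log2 change of each of the 76 genes at 6 h against 0 h, averaged over the strains, with bars for the standard error; blue points were called lower (23), red points higher (4) and grey points were not called (49). The points run from -0.45 for Mrpl15 to 0.27 for Mrpl52.

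By role, the falls were spread over both subunits. Of the large-subunit proteins with a bacterial counterpart, 7 of 28 fell (25%, near the background of 20.3%) and 2 rose. Of those found only in mitochondria, 8 of 20 fell (40%) and 2 rose. Of the small-subunit proteins, 3 of 15 with a bacterial counterpart (20%) and 5 of 9 found only in mitochondria (55.6%) fell, and none rose. The difference between these classes was not tested. With each array scaled to its 75th percentile, the calls of Mrpl41, Mrpl49, Mrpl55, Mrps23, Mrps27 and Mrps30 ended, all found only in mitochondria. Those of Mrpl1 and Mrpl14, with bacterial counterparts, ended as well. The paralogues Mrps18a, Mrps18b and Mrps18c, which encode 3 versions of 1 bacterial protein in different places on the ribosome, were not called, with changes of -0.08, 0.05 and -0.02. Nor were Mrps36 (-0.02), whose protein is now placed in the 2-oxoglutarate dehydrogenase complex, or Mrpl12 (-0.06), whose protein also binds the mitochondrial RNA polymerase.

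Mrpl15, a large-subunit protein with a bacterial counterpart, had the largest fall. In SJL its signal was 1422, 1306 and 1365 at 0 h and 1158, 1091 and 957 at 6 h. SMJ had 1412, 1337 and 1505 against 1061, 1006 and 915, and DBA had 1753, 1679 and 1730.0 against 1336, 1083 and 1347. The C57 values were 1612, 1557 and 1485 before the dose and 1111, 1043 and 1246 after 6 h. Every mouse at 6 h was below every mouse of its strain at 0 h. The change was -0.45 ± 0.06, or 0.73-fold (adjusted p = 3.14e-06 in limma). Of its other probe sets, 6 passed the filter, and 5 of these were lower and called.

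Mrps35, a small-subunit protein found only in mitochondria, changed by -0.33 ± 0.05 (adjusted p = 3.24e-05 in limma). In SMJ its signal was 513, 481 and 456 at 0 h and 349, 335 and 302 at 6 h, and in DBA 478, 526 and 596 against 366, 395 and 409.8. In SJL it was 417, 462 and 412 against 409, 371 and 369. In C57 it was 488, 519 and 502 against 418, 397 and 552. The groups did not overlap in SJL, SMJ and DBA, while in C57 1 mouse at 6 h, C57237, was above all 3 at 0 h.

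Mrpl45, a protein at the exit of the large subunit that anchors it to the inner membrane, changed by -0.35 ± 0.07 (adjusted p = 0.000273 in limma). In DBA its signal was 281, 259 and 316 at 0 h and 181.2, 194 and 201 at 6 h. The C57 signals were 288, 284 and 245 against 184, 215 and 187. In SJL it was 201, 222 and 260.3 against 181.5, 196 and 206, while SMJ had 235.8, 311 and 241 against 290.2, 192 and 230.5. The groups were apart in DBA and C57 and overlapped in SJL and SMJ.

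Mrpl44, a large-subunit protein related to RNases, changed by -0.36 ± 0.08 (adjusted p = 0.000492 in limma), and its 3 other probe sets were lower and called as well. Mrps2, with a bacterial counterpart on the small subunit, changed by -0.32 ± 0.07 (adjusted p = 0.00136), and Mrps27, a pentatricopeptide protein of the small subunit, by -0.30 ± 0.10 (adjusted p = 0.0224). The Mrps27 call ended with either other scaling (adjusted p up to 0.0629). Mrps12, the counterpart of the bacterial decoding-centre protein, changed by -0.29 ± 0.07 (adjusted p = 0.00172). Mrps30 changed by -0.23 ± 0.09 (adjusted p = 0.0487), a call that ended without any 1 of 26 arrays. The other called falls ranged from -0.29 for Mrpl22, which lines the exit tunnel, to -0.17 for Mrpl4. They were those of Mrps5, Mrps33, Mrpl55, Mrps31, Mrpl39, Mrpl14, Mrpl9, Mrpl1, Mrpl34, Mrpl51, Mrpl49, Mrpl41 and Mrps23. Just outside the threshold lay Mrpl2, the counterpart of a bacterial protein at the catalytic centre (-0.29 ± 0.11, adjusted p = 0.0503 in limma), and Mrps28 (0.17 ± 0.07, adjusted p = 0.0518).

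The 4 genes that rose all encode large-subunit proteins. Mrpl52, found only in mitochondria, changed by 0.27 ± 0.07 (adjusted p = 0.00387 in limma). In SJL its signal was 504, 536 and 522 at 0 h and 523, 646 and 797 at 6 h, and in SMJ 609, 536 and 534 against 689, 809 and 605. In DBA it was 639.95, 625 and 571 against 721, 762 and 644, and in C57 634, 618 and 688 against 869.8, 746 and 678. All 12 mice at 6 h were above their strain's 0 h mean, and the groups were apart in DBA and overlapped in SJL, SMJ and C57.

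Mrpl58, a peptidyl-tRNA hydrolase built into the ribosome that frees stalled chains, changed by 0.17 ± 0.05 (adjusted p = 0.00709 in limma). Mrpl13, with a bacterial counterpart, changed by 0.18 ± 0.06 (adjusted p = 0.0243), and Mrpl16, which also has one, by 0.15 ± 0.05 (adjusted p = 0.0282). The calls of Mrpl58 and Mrpl13 ended when all probe sets of a gene were averaged, where Mrpl13 had a change of 0.04 (adjusted p = 0.799). The Mrpl13 call also ended without SMJ58, C57180 or C57233, and that of Mrpl16 without SJL4, SMJ101, DBA115, DBA166 or C57233.

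**Figure D3:**
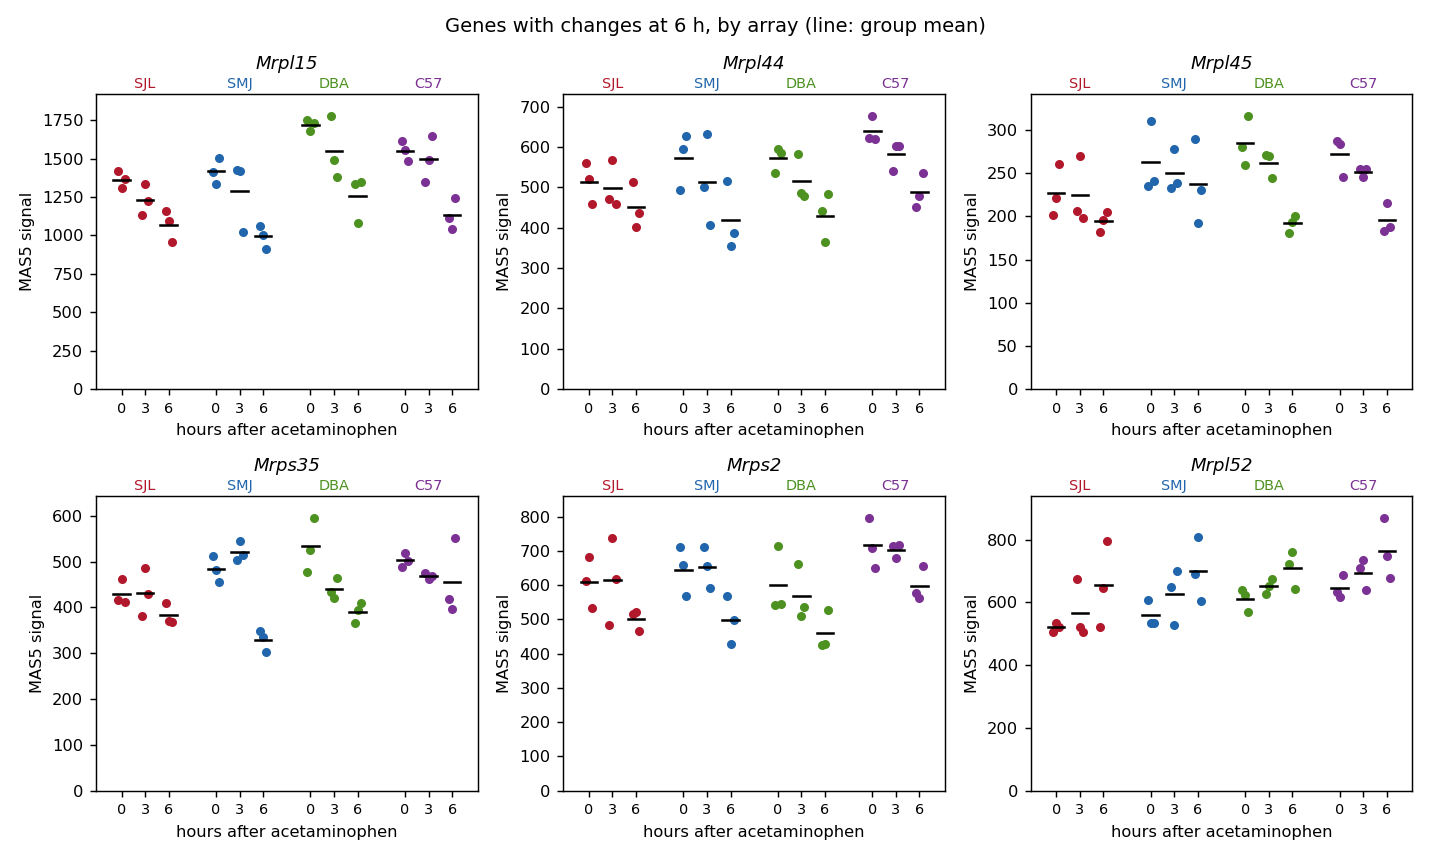
MAS5 signal of Mrpl15, Mrpl44, Mrpl45, Mrps35, Mrps2 and Mrpl52 on each of the 36 arrays, by strain and hours after acetaminophen; points are mice and black lines are means of 3. The first 5 fell at 6 h as the mean of the 4 strains, and Mrpl52 rose.

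Of the 27 genes called at 6 h, 14 stayed called without any 1 array and under all of the other settings tried: Mrpl4, Mrpl9, Mrpl15, Mrpl22, Mrpl39, Mrpl44, Mrpl45, Mrpl51, Mrpl52, Mrps2, Mrps5, Mrps12, Mrps33 and Mrps35. For 16 of the 27, other probe sets passed the filter, 32 in all. Of these, 29 went the same way, 17 were called the same way and 0 were called the opposite way, among 25330 probe sets tested in limma.

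Falls were also called from 3 h to 6 h. Over this interval 18 of the 76 genes (23.7%) fell and 0 rose in limma, against a background of 9.77% lower and 6.94% higher. The median change was -0.10, against -0.02 over all genes. The largest were Mrpl15 (-0.32 ± 0.06, adjusted p = 0.000855), Mrps2 (-0.30 ± 0.07, adjusted p = 0.00623) and Mrps5, a small-subunit protein with a bacterial counterpart (-0.29 ± 0.06, adjusted p = 0.00153). With the mean of all probe sets, 10 were lower and 1 was higher. The comparisons from 0 h and from 3 h share the 6 h arrays.

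Strain by strain, the share of genes called lower at 6 h was near the background in SMJ and C57. In SMJ 10 genes were lower (13.2%, background 12.5%), in DBA 10 (13.2%, background 7.74%), in C57 6 (7.89%, background 5.75%) and in SJL 0 (background 3.37%). None were higher, against backgrounds of 8.87%, 4.85%, 4.39% and 3.63%. The largest falls were Mrps35 in SMJ (-0.55 ± 0.11, adjusted p = 0.000623 in limma) and Mrpl45 in DBA (-0.56 ± 0.14, adjusted p = 0.00767) and C57 (-0.47 ± 0.14, adjusted p = 0.0289). Mrpl15 was called in SMJ, DBA and C57, and in SJL had a change of -0.36.

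The difference itself was not called: of the 76 genes, 0 had a 6 h change in SJL that differed from the mean change of the other 3 strains, where only 0.248% of all genes did. The median difference of SJL from the others over the 76 genes was 0.06. Leaving out 1 array lowered the strain counts to 5 in SMJ (without SMJ57; 6 without SMJ58 or SMJ102), to 4 in DBA (without DBA115 or DBA168; 5 without DBA113) and to 1 in C57 (without C57236; 3 without C57180 or C57233). In SJL 1 was called without SJL39. With the 6 arrays of each comparison fitted alone, 0 were called in any strain.

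At 3 h, 3 of the 76 genes were called in SJL, against a background of 10.1%, and 0 in each other strain (backgrounds of 0.205% for SMJ, 1.46% for DBA and 0.283% for C57). Mrps6, the counterpart of a bacterial small-subunit protein, had signals of 223, 212 and 209 in SJL at 0 h, of 429.7, 282 and 292 at 3 h and of 261, 265 and 264 at 6 h. The 3 h mice lay above both other times, with SJL39 highest. SMJ had means of 340.0 ± 29.8 (SD, n = 3) at 0 h and 317 ± 17.5 at 3 h, DBA of 282 ± 26.0 and 273 ± 9.49, and C57 of 291 ± 50.6 and 309.8 ± 21.1. The SJL change was 0.61 ± 0.13 (adjusted p = 0.00293 in limma) and its difference from the mean change of the others 0.62 ± 0.15 (adjusted p = 0.015). Its second probe set changed by 0.30 in SJL (adjusted p = 0.241), and the difference was not called without SJL39 (adjusted p = 0.063).

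Mrps22, a small-subunit protein found only in mitochondria, had signals of 444, 359 and 444 in SJL at 0 h, of 648, 516 and 537 at 3 h and of 464, 468 and 427 at 6 h. Again the 3 h mice were above both other times. The change was 0.45 ± 0.10 at 3 h (adjusted p = 0.00466 in limma), against -0.12 in SMJ, -0.15 in DBA and 0.13 in C57. It differed from the mean of the others by 0.49 ± 0.12 (adjusted p = 0.0133), a call that ended without SJL2 (adjusted p = 0.074). Mrps6 and Mrps22 were the 2 genes of the family called in that comparison, in which 4.63% of all genes were. Mrpl17, with a bacterial counterpart on the large subunit, was 1784, 1978 and 1638 in SJL at 0 h and 1290.1, 1376 and 1574 at 3 h (-0.35 ± 0.11, adjusted p = 0.0393 in limma). At 6 h it was 1921, 1816 and 1739. Its call ended without SJL1, SJL2, SJL39 or SJL40, and under 4 other settings.

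**Figure D4:**
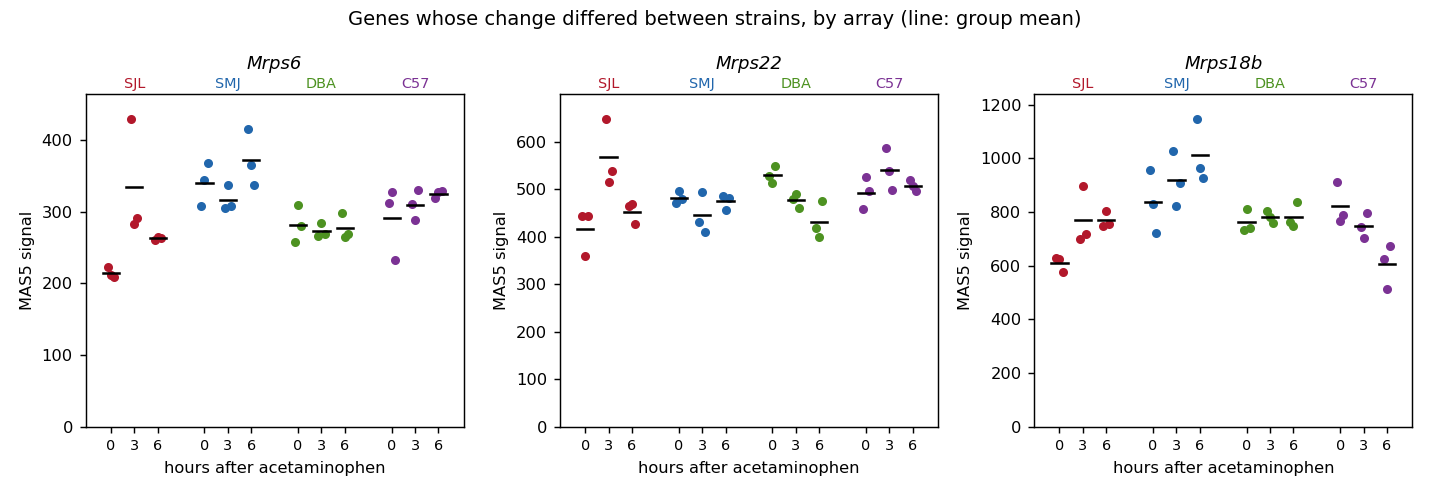
MAS5 signal of Mrps6, Mrps22 and Mrps18b on each of the 36 arrays, by strain and hours after acetaminophen; points are mice and black lines are means of 3. SJL stands at its highest at 3 h for Mrps6 and Mrps22, and Mrps18b is lower at 6 h in C57 and not in the other strains.

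In tests over all 4 strains at once, Mrps22 was the 1 gene of the family whose 3 h change differed (moderated F test, adjusted p = 0.046 in limma; background 1.95%), and Mrps18b the 1 whose 6 h change did (adjusted p = 0.0161; background 5.26%). Mrps18b was 913, 767 and 787 in C57 at 0 h and 626, 515 and 675 at 6 h, a change of -0.45 ± 0.12 (adjusted p = 0.0169). Its 6 h change was 0.33 ± 0.12 in SJL (adjusted p = 0.103), 0.28 ± 0.12 in SMJ (adjusted p = 0.107) and 0.04 ± 0.12 in DBA. Neither result held throughout: that of Mrps22 was lost without any 1 of 29 arrays, and that of Mrps18b without C57180 or C57236.

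Before the dose, 28 of the 76 genes (36.8%) differed between strains in limma's moderated F test, against a background of 26.5%. Among the 28, SJL was the lowest strain in 15, DBA in 6, C57 in 4 and SMJ in 3, and SMJ and C57 were each the highest in 11. The same ranks over all called genes are not given, so whether they are particular to this family is not shown. Beside the 5 with the smallest p, those that differed were Mrpl17, Mrpl19, Mrpl20, Mrpl22, Mrpl24, Mrpl32, Mrpl34, Mrpl35, Mrpl36, Mrpl38, Mrpl42, Mrpl49, Mrpl54, Mrps6, Mrps10, Mrps14, Mrps17, Mrps18b, Mrps22, Mrps24, Mrps31, Mrps33 and Mrps36. Without DBA113 18 genes were called, with the mean of all probe sets 15, and with the 0 h arrays alone 10.

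In 3 of the 5 genes with the smallest p, SMJ was the highest strain. Mrpl39, a large-subunit protein found only in mitochondria, was 2217, 2284 and 2498 in SMJ at 0 h, against 1477, 1153 and 1370.3 in SJL, 1625, 1517 and 1413 in DBA and 1725, 1685 and 1336 in C57 (adjusted p = 8.25e-05). Mrpl50, which also has no bacterial counterpart, was 684, 754 and 763 in SMJ and 599, 566 and 659.6 in DBA, against 452, 443 and 495 in SJL and 490.5, 451 and 432 in C57 (adjusted p = 9.26e-06). Mrps11, a small-subunit protein with a bacterial counterpart, was 298, 283 and 304 in SMJ, against 127, 192 and 201 in SJL, 145, 189 and 190.5 in DBA and 179, 109.8 and 129.8 in C57 (adjusted p = 0.000837). In all 3 genes the SMJ mice lay above every other mouse at 0 h.

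Mrpl9, with a bacterial counterpart, was 581, 504 and 566 in DBA, 472, 386 and 505 in C57, 457, 320.3 and 333 in SMJ and 309, 315 and 316 in SJL at 0 h (adjusted p = 0.000109 in limma). SJL lay below every other mouse, and the neighbours in this order overlapped otherwise. Mrpl27, whose bacterial counterpart reaches towards the catalytic centre, was 1484, 1486 and 1325 in SJL and 1205, 1348 and 1546 in C57, against 1190.2, 1090.0 and 1107 in DBA and 1103, 999 and 1081 in SMJ (adjusted p = 0.00279). Second probe sets of Mrpl39, Mrpl50 and Mrpl9 also differed between strains (adjusted p = 0.00436, 0.000943 and 0.00938 in limma over probe sets). That of Mrpl50 was highest in DBA (mean log2 signal 7.82, against 7.76 in SMJ). A further probe set of Mrpl9 (adjusted p = 0.0696 in limma) and the dim second one of Mrpl27 (adjusted p = 0.0981) were not called. Over the called genes, 6 of 20 other probe sets were called and 9 had the same highest strain. The share of all probe sets called is not given, and of all genes 26.5% were called.

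**Figure D5:**
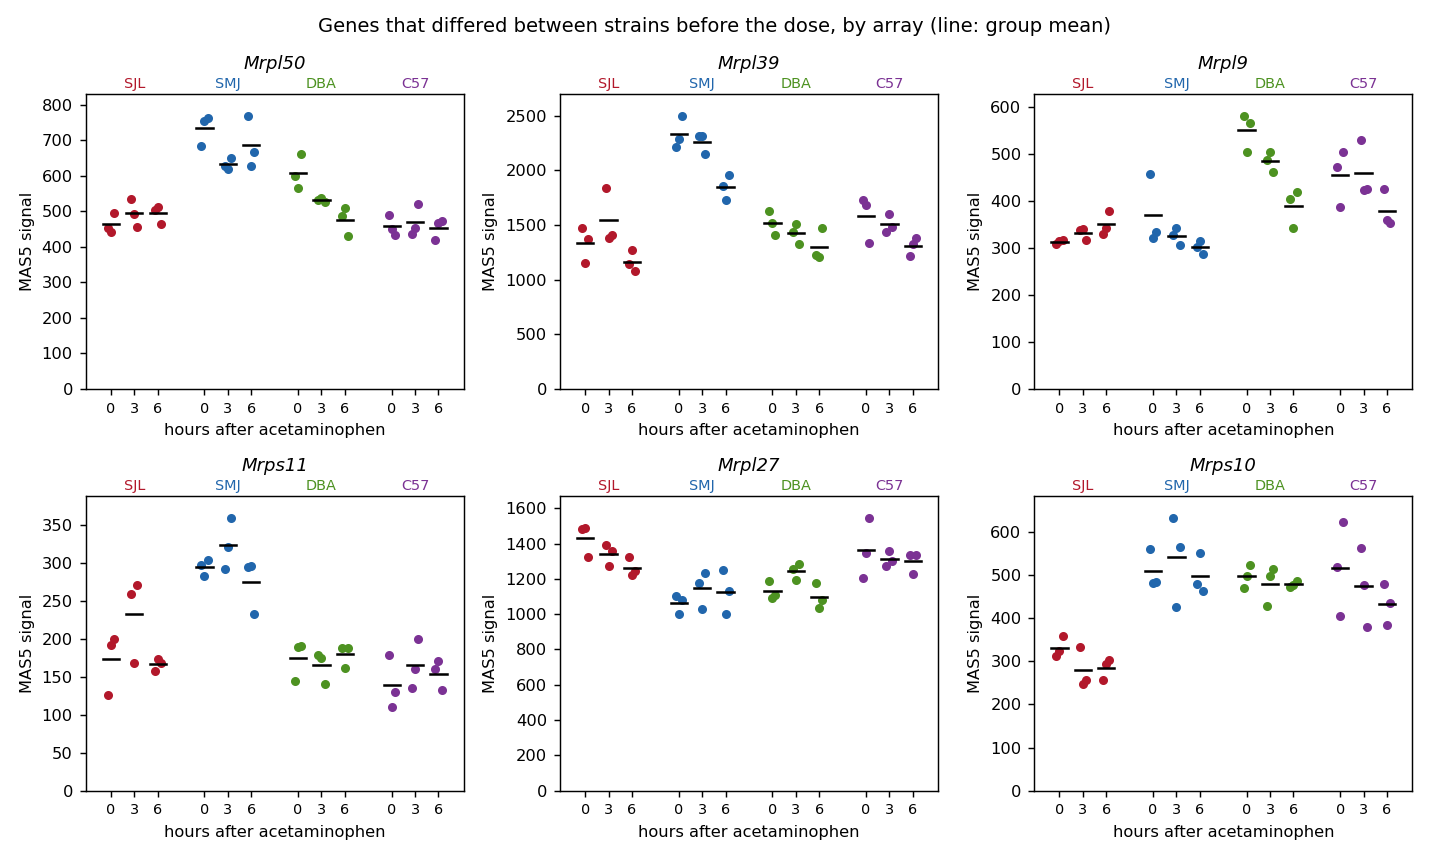
MAS5 signal of Mrpl50, Mrpl39, Mrpl9, Mrps11, Mrpl27 and Mrps10 on each of the 36 arrays, by strain and hours after acetaminophen; points are mice and black lines are means of 3. SMJ is highest for Mrpl50, Mrpl39 and Mrps11 at 0 h, and SJL is lowest for Mrps10 at all 3 times.

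Before the dose, SJL was lower than the other 3 strains together for 10 of the 76 genes and higher for 2, against backgrounds of 5.84% and 6.55%. The median difference was -0.12, against 0.04 over all genes, and 57 of the 76 lay below zero. Mrps10 (-0.60 ± 0.13, adjusted p = 0.00227 in limma), Mrpl19 (-0.55 ± 0.12, adjusted p = 0.00384) and Mrpl9 (-0.51 ± 0.10, adjusted p = 0.00104) were the lowest, the first a small-subunit and the other two large-subunit proteins with bacterial counterparts. Mrps6 (-0.49), Mrps22 (-0.27) and Mrps18b (-0.40) were lower as well (adjusted p = 0.00276, 0.0268 and 0.00825 in limma). The Mrps22 call ended without SJL2 (adjusted p = 0.28), with quantile normalization and with the 0 h arrays alone. That of Mrps18b ended without SJL4, and that of Mrps6 with its second probe set (adjusted p = 0.112). These SJL arrays at 0 h are also the baseline of the SJL changes at 3 h. Those higher were Mrpl33 (0.45 ± 0.15, adjusted p = 0.0467) and Mrpl27 (0.28 ± 0.08, adjusted p = 0.0189), both with bacterial counterparts. The Mrpl33 call ended without any 1 of 22 arrays and under 4 other settings, and with all probe sets averaged its difference was 0.002 (adjusted p = 0.998). That of Mrpl27 ended without SJL1 or SJL2, and that of Mrpl19 without SJL2 (adjusted p = 0.0524), and both with all probe sets averaged. Without SJL2, or with the 0 h arrays alone, 7 were called, all lower.

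Mrps10 was the 1 gene of the 76 (1.32%) in which the 9 arrays of a strain lay wholly outside the other 27, which held for 2.4% of all genes. In SJL its lowest, median and highest signals over all times were 248.5, 303.5 and 358, and in the other strains 380.4, 482.1 and 633.4. Its second probe set was dim, above the median of all values on 13 of 36 arrays, and had a difference of 0.84 ± 0.61 in the other direction (adjusted p = 0.444).

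The other machinery of mitochondrial gene expression was followed at 6 h in 4 lists, chosen with earlier results of these data known, against the same background of 20.3% lower and 12.7% higher. Of 12 translation factors tested, 6 fell (50%) and 0 rose in limma. They included Mtfmt, which formylates the initiator tRNA (-0.53 ± 0.08), Mtif2, an initiation factor (-0.37 ± 0.06), and Gfm1, an elongation factor (-0.26 ± 0.06). Of 20 factors that assemble the ribosome, 10 fell (50%) and 0 rose, among them Mterf4, which directs the modification of ribosomal RNA (-0.59 ± 0.07), Ngrn (-0.61 ± 0.09) and the GTPase Noa1 (-0.41 ± 0.08). Of 18 mitochondrial tRNA synthetases and related enzymes, 6 fell (33.3%) and 0 rose, with Nars2 (-0.55 ± 0.08), Rars2 (-0.44 ± 0.06) and Gatc (-0.38 ± 0.06) the clearest. Of 19 genes of mitochondrial transcription and RNA, 9 fell (47.4%) and 2 rose, including falls of Tefm, the elongation factor (-0.56 ± 0.08), Tfam, which packs the mitochondrial genome (-0.28 ± 0.05), and Lrpprc, which stabilises its messenger RNAs (-0.29 ± 0.05).

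The medians of these 4 lists were -0.23, -0.18, -0.13 and -0.27, against -0.07 for the ribosomal proteins and -0.05 for all genes. With the 75th percentile scaling 3 of 12, 7 of 20, 4 of 18 and 9 of 19 genes fell, and with quantile normalization 3, 7, 5 and 9. The background under these scalings is not given. Mitoribosome proteins with other symbols gave 0 calls of 4 tested, among them Dap3, a GTP-binding small-subunit protein (0.02 ± 0.08). At 3 h the 4 lists had 0, 2, 1 and 1 genes that fell and 0 that rose, against a background of 4.02% lower and 3.24% higher.

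Of 14 genes listed as regulators of nuclear mitochondrial genes, 6 fell (42.9%) and 3 rose at 6 h. The falls included Tfb1m (-0.45 ± 0.10), which was also counted among the assembly factors, and Sirt3 (-0.55 ± 0.08). Gabpa, the DNA-binding subunit of GABP, changed by -0.59 ± 0.05 (adjusted p = 2.74e-09 in limma), and at 3 h by -0.28 (adjusted p = 0.00108). Of its partner subunits, Gabpb2 fell (-0.55 ± 0.10, adjusted p = 0.000162 in limma) and Gabpb1 was not called (0.21 ± 0.11, adjusted p = 0.167). Nrf1 was not called either (0.17 ± 0.10, adjusted p = 0.22). Yy1 fell (-0.17 ± 0.06, adjusted p = 0.0239), and Pprc1, a coactivator related to PGC-1, rose (0.60 ± 0.11, adjusted p = 0.00012). Ppara, the receptor that drives fatty acid oxidation, changed by -1.14 ± 0.14, Sirt1, a deacetylase, by 0.81 ± 0.10, and Myc, a growth regulator, by 2.60 ± 0.16.

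Of 40 genes for proteins of the cytosolic ribosome, 33 rose (82.5%) and 0 fell at 6 h, with a median of 0.29, although with quantile normalization 6 rose and the median was 0.07. Of 80 nuclear genes for the respiratory chain, which includes the complexes that mitochondrial ribosomes help to build, 34 rose (42.5%) and 1 fell, with a median of 0.12. With quantile normalization 3 rose and 10 fell, and the median was -0.04. The median of the ribosomal proteins of mitochondria stayed below zero under all 3 scalings (-0.07, -0.03 with the 75th percentile and -0.05 with quantile normalization). The median over all genes was -0.05 with the main scaling. Neither it nor the background is given for the other scalings.

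Other measures moved with the 6 h groups. Of 8 neutrophil markers tested, 5 rose, and their summed signal ran from 163.2 to 896.5 at 0 h and from 454.9 to 2556 at 6 h. Of 8 endothelial markers, 6 rose, with sums from 2021 to 3507 at 0 h and from 2292 to 4576 at 6 h. Of 8 markers of stellate cells and fibroblasts, 3 rose and 2 fell, and their sums ran from 3499 to 4718 and from 3854 to 6401. Among markers of macrophages 2 of 9 rose, of bile duct cells 1 of 4, and of lymphocytes and erythroid cells 0 of 5 and 0 of 2 were called. Of 9 pericentral hepatocyte markers, 8 fell, while 7 of 9 general hepatocyte markers rose. The ratio of 3′ to 5′ actin signal, a measure of RNA integrity, had group means between 1.57 and 1.77 at 0 h and between 1.35 and 1.67 at 6 h. It was lower at 6 h in SJL, SMJ and DBA and not in C57 (1.64 at 0 h and 1.67 at 6 h). The same ratio for GAPDH had group means from 0.719 to 0.766 at 0 h and from 0.715 to 0.779 at 6 h. The part of these in the changes above was not tested.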

How the data were processed

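The deposited intensity values are linear MAS5 signals per probe set, made by the authors per the submitters' processing notes, which name no version. The files held every array's values on 1 scale (trimmed mean 150, with 2% cut at each end), and nothing was rescaled. Of 45101 probe sets, 34945 carried 1 gene symbol, 932 several and 9160 none, with 64 controls left out. The offset was the 10th percentile of all values, and a gene was tested when 3 or more of the 36 arrays exceeded 30.8, the overall median. The 12 group means were fitted with limma 3.58.1 in R 4.3.3 (24 residual degrees of freedom), with no batch, since the labels give none. The 17 comparisons, with two-sided tests, were each strain's change, the means over strains, SJL against the rest and F tests. The fit was tested on simulated data. The genes and lists were chosen with earlier results of these data known.

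Genes named were the largest called changes of each comparison, up to 6 each way at 6 h and fewer elsewhere, the 5 smallest p of each F test, up to 3 per companion list, and Mrps36, Mrpl12, Mrps12, Mrpl58, Mrps30, Dap3 and the Mrps18 genes. Others named were chosen after their values were seen. Alternatives were the offset, filter, scaling, probe set, spread, arrays fitted and leaving out each array. Hybridisation was measured, and no transcript sequence of any strain was used here.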

Additional observations from a re-analysis of the deposited data

Results flagged for a closer look

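In 3 genes the response was called different between strains by a test of the difference itself. The shares were below the background: 1.32% of the 76 genes against 1.95% for the 3 h change between the 4 strains. They were 2.63% against 4.63% for SJL at 3 h, and 1.32% against 5.26% for the 6 h change. In none of these comparisons was a call kept both without any 1 array and under all other settings. For Mrps22 the 3 h change differed between the 4 strains (adjusted p = 0.046, limma's moderated F test) and between SJL and the mean of the others (adjusted p = 0.0133 in limma, a difference of 0.49). For Mrps6 the 3 h change in SJL differed from the mean of the others (adjusted p = 0.015 in limma, a difference of 0.62). For Mrps18b the 6 h change differed between the 4 strains (adjusted p = 0.0161, limma's moderated F test). On the same arrays, 3 of 3 C57 mice at 6 h were below all C57 mice at 0 h, which held for 13.7% of all genes.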

How the results depend on the processing

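Of 1440 repeats of the 32 results for single genes, 1331 kept their direction and side of the threshold. Another 108 lost the call without reversing, and 1 reversed. F tests have no direction, so for them only the call could be compared. The reversal came with all probe sets averaged, where Mrps10 in SJL at 0 h was 0.117 above the other strains (adjusted p = 0.874 in limma). Leaving out an array outside the groups compared alters only the spread, so many repeats were bound to keep their direction. In SJL at 3 h, and in SMJ, DBA and C57 at 6 h, 0 calls were kept both without any 1 array and under all other settings. The counts of called genes that moved by over 1.5 times were these. Averaging all probe sets gave 1 call at 3 h, 11 from 3 h to 6 h, 15 between strains at 0 h, 1 for SJL against the others at 3 h and 0 between strains in the 3 h change. Fitting only the groups compared gave 0 calls in SJL at 3 h and 0 in SMJ, DBA and C57 at 6 h, 7 for SJL at 0 h, 10 between strains at 0 h, 1 for SJL against the others at 3 h and 0 between strains in the 3 h change. Scaling to the 75th percentile gave 1 call at 3 h, 6 in SMJ (2 higher and 4 lower) and 4 in DBA at 6 h, and 0 between strains in the 3 h change. That last count was also 0 with an offset of 16, without the filter and with quantile normalization. Choosing the probe set by mean log2 signal gave 1 for SJL against the others at 3 h, and a filter of 18 arrays gave 2 between strains in the 6 h change. Without 1 array at a time, counts ran from 0 to 1 at 3 h, 0 to 1 in SJL at 6 h, and, at the same time, 5 to 12 for SMJ, from 4 up to 11 for DBA and from 1 up to 7 for C57. They ran from 7 to 16 for SJL at 0 h, 1 to 3 and 0 to 1 for SJL against the others at 3 h and 6 h, 18 to 29 between strains at 0 h, and 0 to 2 between strains in each change. The fit of fewer arrays or of other probe sets changes the values themselves; otherwise the cause was not tested. No paired analysis was possible because mice carry their own numbers, which no 2 groups share. With 3 arrays a group, small changes within a strain are beyond the precision of these data.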
